A study of Mus musculus with 16 samples.

Results

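Microglia, the macrophages that reside in the retina, can release growth factors that act on vessels, and 10 genes of that kind are described here: Igf1, Vegfa, Vegfb, Pdgfa, Pdgfb, Hbegf, Ang, Thbs1, Tgfa and Grn. They were matched by gene symbol from a list drawn up with earlier results of these data known, and all 10 were found among the 54532 genes of the deposited table. RNA was compared between 8 libraries labelled OIR (oxygen-induced retinopathy) and 8 labelled nonOIR, all from mice at postnatal day 17. In this model newborn mice breathe excess oxygen, which stops and prunes the retinal vessels. On return to room air the retina becomes hypoxic and abnormal vessel tufts grow. Animals of both groups carried Cx3cr1CreERT2 and Rosa26-tdTomato and had received tamoxifen (5 µl at 21 mg per ml) under the skin at postnatal day 1. The Cx3cr1 promoter drives the recombinase in microglia and also in other macrophages that express Cx3cr1. The cells were sorted as CD11b+ and tdTomato+ with low CD45 and without Ly6C or Ly6G. In each group 5 libraries carried the code of lane 1 and 3 that of lane 2. Whether the animals or the library preparations of the lanes also formed separate batches is not stated. For 7 libraries, all of lane 1, the label also holds a code and a number whose meaning is not given. Nothing in the labels states that libraries came from separate or pooled animals, and the p-values then cover no more than the spread among these 16 samples, which may be technical.

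The members act at different points of vessel growth. VEGF-A, induced by hypoxia, signals through the receptor Kdr and is the main driver of sprouting, IGF-I supports the survival and growth of the sprouts, and PDGF-B draws pericytes to the new vessel through Pdgfrb. HB-EGF and TGF-alpha are released from the membrane by proteases and bind the EGF receptor. Angiogenin is a secreted ribonuclease, thrombospondin-1 restrains angiogenesis through Cd36 and Cd47, and progranulin (Grn) is both a secreted factor and a lysosomal protein.

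Angiogenin and the neighbouring ribonuclease gene Rnase4 share a promoter, which is printed because both genes fell together in OIR. The windows of the VEGF genes are set beside it because HIF, the hypoxia-induced transcription factor, binds sites with the core ACGTG or GCGTG. Each run is the 250 bases before the RefSeq start (build GRCm38.p6), 5′ to 3′ along the gene, and capitals mark either core on either strand.
Ang and Rnase4, chr14:51090827-51091076, plus strand: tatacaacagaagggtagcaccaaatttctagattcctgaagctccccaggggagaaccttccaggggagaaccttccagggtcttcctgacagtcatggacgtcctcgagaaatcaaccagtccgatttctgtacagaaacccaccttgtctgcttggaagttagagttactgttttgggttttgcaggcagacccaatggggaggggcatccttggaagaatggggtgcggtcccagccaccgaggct
Vegfa, chr17:46032378-46032627, minus strand: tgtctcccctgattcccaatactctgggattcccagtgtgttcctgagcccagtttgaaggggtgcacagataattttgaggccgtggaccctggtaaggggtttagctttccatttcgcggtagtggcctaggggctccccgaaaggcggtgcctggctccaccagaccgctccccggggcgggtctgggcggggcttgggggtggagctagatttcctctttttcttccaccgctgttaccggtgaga
Vegfb, chr19:6987652-6987901, minus strand: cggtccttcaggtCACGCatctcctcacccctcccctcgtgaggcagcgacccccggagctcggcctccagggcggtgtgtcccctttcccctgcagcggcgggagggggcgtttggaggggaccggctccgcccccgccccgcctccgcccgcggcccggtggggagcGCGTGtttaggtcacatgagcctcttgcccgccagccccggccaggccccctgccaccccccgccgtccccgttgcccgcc
ACGTG overlaps its own reverse complement in CACGTG. In the Vegfb window GCGTG stood 81 bases before the start on the gene's strand and 237 bases before it on the other, and the Ang and Vegfa windows held neither core. The window of a downstream Vegfa start, inside the gene and not printed, held both. That of a downstream Rnase4 start, which Ang does not share, held neither. Windows of Igf1, Tgfa and a Pdgfa start, not printed, held GCGTG, counting both strands. Those of Grn and another Pdgfa start held neither core. Sites beyond these 250 bases were not searched. Of 32817 promoter windows of this length, 38.6% held at least 1 of these cores. The letters TATAAA were absent from all 3 printed windows and present in 12.4% of all windows, counting both strands.

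Igf1 and Grn rose in OIR and Ang fell, while the other 7 members did not pass the test (quasi-likelihood test of edgeR, p-values adjusted by Benjamini-Hochberg over 12496 genes, threshold 0.05). That is 2 members higher and 1 lower, against 10.9% of all tested genes called in either direction, 6.39% higher and 4.56% lower. The median log2 fold change was 0.08 over the 10 members and -0.03 over all tested genes. With library size as the only scaling the same 3 members passed, although the split over all genes moved from 798 higher and 570 lower to 1020 higher and 364 lower. Of all genes tested, 11.1% were called with that scaling, 17.3% with lane as a covariate, 13.4% with the replicate number as a block, 3.33% in lane 1 alone and 15.4% in lane 2 alone. The share was 12.7% with DESeq2, 10.4% with limma-voom, 3.28% with no low-count filter, 11.4% without OIR replicate 1 and nonOIR replicate 8, and 7.39% to 12.3% when single libraries were left out. In bulk RNA, fewer cells that express a gene and less RNA per cell cannot be told apart.

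**Figure D1:**
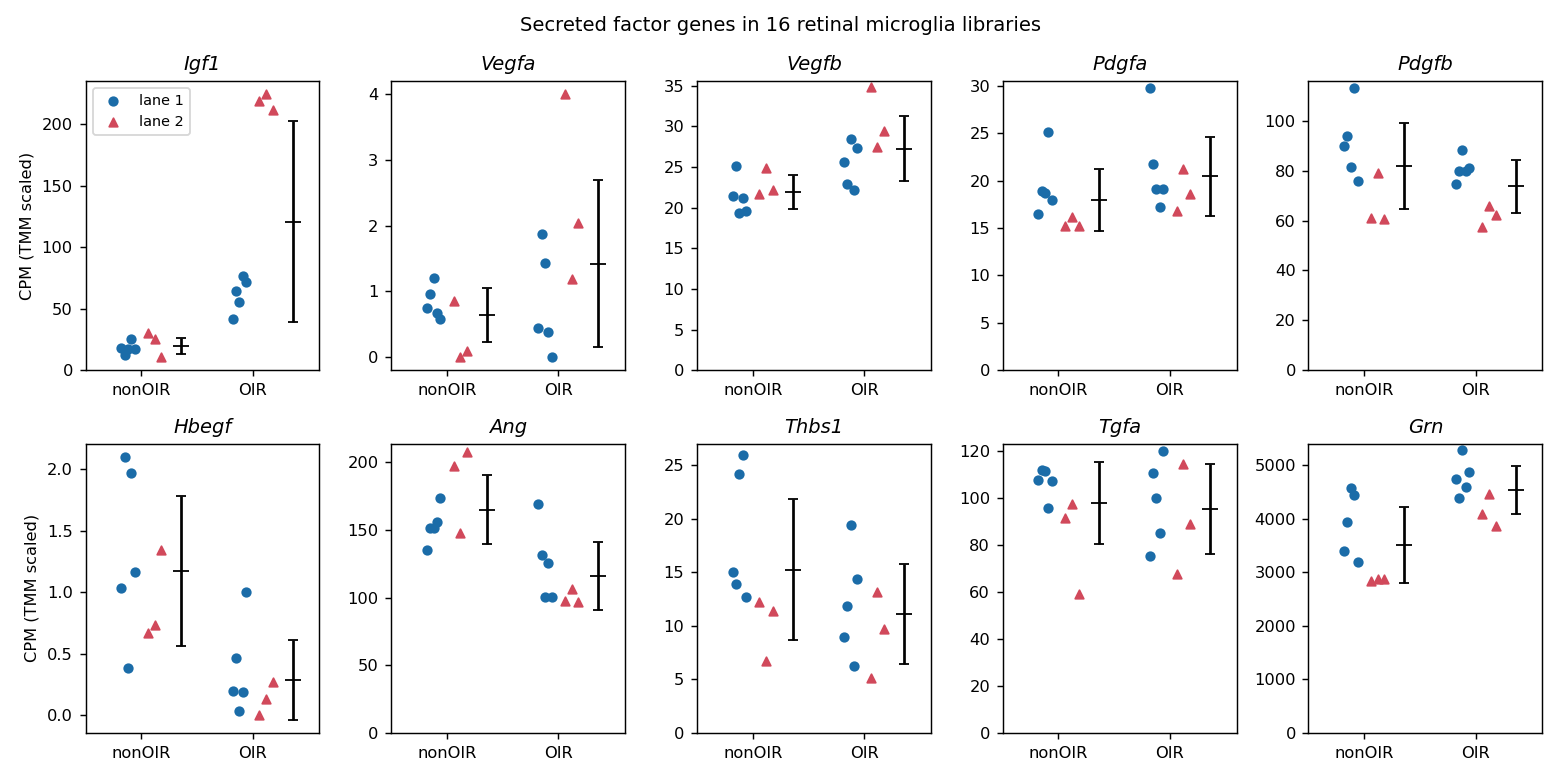
Level of each member in CPM (counts per 1000000 of the TMM-scaled library size, vertical axes, 0 included), 1 point per library, circles for lane 1 and triangles for lane 2, with the mean ± SD of 8 libraries beside each group. Igf1 is the member whose OIR and nonOIR ranges do not overlap, and its 3 OIR lane 2 libraries sit between 212 and 224, above the 5 of lane 1.

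Library totals ran from 13591651 to 30001463 counts. Within a group no pair of libraries matched within sampling noise. Of the microglial markers P2ry12, Tmem119, Sall1, Cx3cr1, Csf1r, Fcrls, Siglech, Olfml3 and Gpr34, all 9 were present in both groups, and their summed level was 23944 to 41544 CPM in OIR and 38556 to 50914 in nonOIR. Of these 9, 3 passed as lower in OIR (P2ry12, Tmem119 and Gpr34). The 7 erythrocyte markers summed to 1.87 to 292 CPM in OIR and 0 to 28.9 in nonOIR, and 2 passed as higher; their part in the results was not tested. Markers of other retinal vessel cells were low. The 10 endothelial markers summed to 10.3 to 38.0 CPM in OIR and 22.1 to 42.2 in nonOIR, mostly Pecam1. The 8 pericyte and smooth muscle markers summed to at most 6.13 CPM in any library. The 1 of them tested, Acta2, passed as higher in OIR (means 0.744 and 0.173 CPM in nonOIR, edgeR adjusted p = 0.026). Of 8 Muller glia markers 6 were tested, and 1 passed as higher (Vim) and 1 as lower (Glul). The 5 astrocyte markers summed to at most 23.3 CPM in any library, and the 1 tested did not pass. The 8 border macrophage markers, among them Mrc1 and Lyve1, summed to 50.4 to 410 CPM in OIR and 29.8 to 207 in nonOIR. The 9 monocyte markers summed to 29.5 to 132 CPM in OIR and 16.0 to 78.9 in nonOIR, with Ly6c2 at 0 counts in all libraries. F13a1 had the highest mean of them (49.6 ± 43.2 CPM in OIR and 18.6 ± 20.8 in nonOIR, SD, n = 8), and 1 marker passed as higher in OIR (Ms4a4c). The 10 rod photoreceptor markers summed to 37.9 to 419 CPM in OIR and 63.7 to 507 in nonOIR, and 0 passed. Of 10 retinal neuron markers 6 were tested and 3 passed as lower in OIR (Snap25, Nefl and Calb2), with sums of 30.5 to 55.1 CPM in OIR and 51.0 to 93.9 in nonOIR.

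Levels of different genes were compared per kilobase of exon, taken from GENCODE M21. Grn was the highest member in either group, at 1012 ± 205 CPM per kb in nonOIR and 1306 ± 129 in OIR (SD, n = 8). By mean CPM it ranked 24 of 12496 tested genes. Ang came second, at 137 ± 21.4 CPM per kb in nonOIR and 96.4 ± 21.1 in OIR (SD, n = 8). Both stood apart from the member below them in either group.

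Next in nonOIR were Pdgfb, Tgfa and Vegfb, at 19.7 ± 4.18, 15.1 ± 2.69 and 13.7 ± 1.33 CPM per kb (SD, n = 8). Pdgfb and Tgfa overlapped, and so did Tgfa and Vegfb. Pdgfa followed at 5.76 ± 1.04 CPM per kb, above all libraries of the next gene, Thbs1. Thbs1 at 2.51 ± 1.08 and Igf1 at 1.98 ± 0.688 overlapped (SD, n = 8). Hbegf at 0.243 ± 0.127 and Vegfa at 0.149 ± 0.0963 CPM per kb were the lowest and also overlapped (SD, n = 8). In OIR the order of means was Grn, Ang, Pdgfb, Vegfb, Tgfa, Igf1, Pdgfa, Thbs1, Vegfa and Hbegf. Igf1 moved from the eighth place to the sixth, at 12.2 ± 8.25 CPM per kb (SD, n = 8), and its range there overlapped those of both neighbours.

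**Figure D2:**
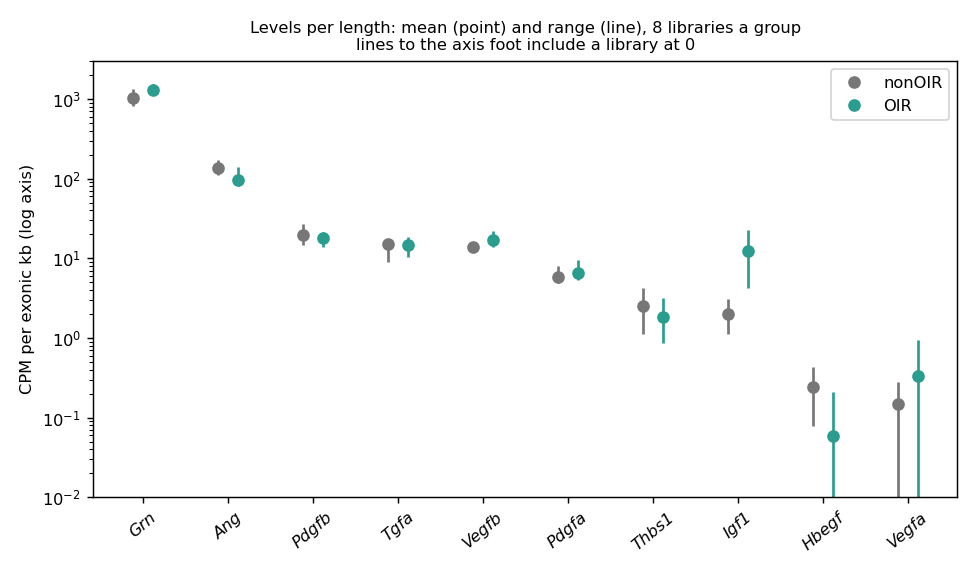
Level of each member in CPM per kilobase of exon (log axis), mean as a point and lowest to highest library as a line, 8 libraries a group; lines that reach the foot include a library at 0. Grn and Ang lie above the rest in both groups, and Igf1 is the member with the largest upward shift among those that passed the test.

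Igf1 (ENSMUSG00000020053, mm10 chromosome 10 from 87858265 to 87937042, plus strand) encodes insulin-like growth factor 1. Its level in nonOIR was 11.0 CPM at the lowest, 17.7 at the median and 30.4 at the highest, and in OIR 42.0, 74.1 and 224. Every OIR library therefore lay above every nonOIR library, which was true of 1.34% of tested genes. The rise was 6.15-fold between means, or 2.62 ± 0.37 on the log2 scale (SE, edgeR adjusted p = 0.0003), and it passed when any single library was left out (log2 fold change 2.45 to 2.75). Among OIR libraries the level fell into separate ranges by lane: 42.0, 64.3, 55.2, 76.6 and 71.6 CPM in replicates 1 to 5 of lane 1, and 219, 224 and 212 CPM in replicates 6 to 8 of lane 2. Such a split, with OIR lane 2 above OIR lane 1, was seen in 11.6% of tested genes. The nonOIR libraries did not split in this way, with 12.4 to 25.0 CPM in lane 1 and 11.0 to 30.4 in lane 2. Within lane 1 the OIR and nonOIR ranges did not overlap, as in 3.29% of tested genes. Igf1 rose within either lane, 3.45-fold in lane 1 (log2 fold change 1.79 ± 0.20 (SE), edgeR adjusted p = 0.00103) and 9.75-fold in lane 2 (3.33 ± 0.31 (SE), edgeR adjusted p = 0.000271). The difference between lanes was 1.497 ± 0.368 on the log2 scale (SE) and did not pass (edgeR interaction test, unadjusted p = 0.000756, adjusted p = 0.0733).

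The summed level of markers of other macrophages also differed between OIR lanes. Border macrophage markers summed to 325 to 410 CPM in the 3 OIR libraries of lane 2 and to 50.4 to 169.6 in the 5 of lane 1, while nonOIR libraries held 29.8 to 179 in lane 1 and 66.8 to 207 in lane 2. Of the 8 border macrophage markers 1 passed as higher in OIR, Siglec1, and monocyte markers summed to 118 to 132 CPM in OIR lane 2 and 29.5 to 61.9 in OIR lane 1. The 9 microglial markers went the other way, with 23944 to 27789 CPM in OIR lane 2 and 36753 to 41544 in OIR lane 1. In nonOIR they summed to 38556 to 41211 CPM in lane 2 and 44051 to 50914 in lane 1. The 6 platelet markers summed to 136 to 207 CPM in OIR lane 2 and 11.6 to 51.2 in OIR lane 1. They include Pf4, which is also in the border macrophage sum and alone stood at 124 to 194 CPM in OIR lane 2. The part of any of these markers in the level of Igf1 was not tested. Single border macrophage markers differed in their lane pattern. In OIR, Pf4 stood at 25.3 ± 14.0 CPM in lane 1 (SD, n = 5) and 164 ± 35.7 in lane 2 (SD, n = 3), while Siglec1 stood at 15.8 ± 12.5 and 13.4 ± 4.76. The lane ranges of Mrc1 in OIR overlapped (2.31 to 69.2 and 55.5 to 68.0 CPM).

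The rest of the IGF pathway was sparse in these cells. Of 22 listed binding proteins, receptors, adaptors and proteases 6 were high enough to test, and 0 passed in edgeR or limma-voom. At an unadjusted edgeR p under 0.05 there were 3, against 3130 of all 12496 tested genes. The receptor gene Igf1r stood at 10.4 ± 3.79 CPM in OIR and 9.30 ± 2.84 in nonOIR, and the insulin receptor gene Insr at 19.2 ± 8.64 and 29.7 ± 9.16 (SD, n = 8). Irs2, an adaptor of both receptors, stood at 19.4 ± 3.33 and 28.8 ± 10.3 CPM (SD, n = 8). The highest binding protein gene was Igfbp4, at 84.1 ± 21.6 CPM in OIR and 64.5 ± 7.40 in nonOIR (SD, n = 8, edgeR adjusted p = 0.0866). Igf2 and Igfbp1 had 0 counts in all 16 libraries. Igf2r, a receptor that carries IGF-II and lysosomal enzymes, was too low for edgeR's filter. It had 256 counts in OIR, all libraries summed, and 22 in nonOIR, and was called by DESeq2 alone (log2 fold change 3.38 ± 1.02 (SE), DESeq2 adjusted p = 0.0125). The 2 OIR libraries with 0 Igf2r counts were replicates 1 and 2, both of lane 1.

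By the measure fixed for likeness (Pearson r of deviations from the group means of log2(CPM + 1), 16 libraries, 9054 other genes), Igf1 was nearest to Lgals3, Rab29, Slc40a1, Sh3bgrl and Fabp5. The r ran from 0.90 for Fabp5 to 0.93 for Lgals3, the galectin-3 gene. Igf1 split by lane among the OIR libraries, and with lane means also removed the r was 0.56 to 0.76. Slc40a1, the iron exporter ferroportin, stood at 788 ± 275 CPM in OIR and 393 ± 52.3 in nonOIR, and Rab29, a small GTPase of membrane traffic, at 31.1 ± 10.2 and 29.3 ± 4.97 (SD, n = 8).

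VEGF genes were at very different levels, and neither passed. Vegfa (ENSMUSG00000023951, chromosome 17 from 46016993 to 46032369, minus strand) held between 0 and 89 counts per library. Its CPM was 0 at the lowest, 0.706 at the median and 1.20 at the highest in nonOIR, and 0, 1.31 and 4.00 in OIR. A library at 0 occurred in each group (OIR replicate 5 and nonOIR replicate 7), and the ranges overlapped over all libraries. On the log2 scale the change was 1.15 ± 0.79 (SE, edgeR adjusted p = 0.396). Within lane 1 the means were 0.825 CPM in OIR and 0.832 in nonOIR. In lane 2 all 3 OIR libraries lay above all 3 nonOIR libraries (means 2.41 and 0.311 CPM), as did 18.3% of tested genes there, and the test did not pass (log2 fold change 2.99 ± 1.25 (SE), edgeR adjusted p = 0.146).

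Vegfb (ENSMUSG00000024962, chromosome 19 from 6982473 to 6987651, minus strand) encodes a relative of VEGF-A that binds Flt1 and not Kdr. It ran from 19.3 CPM through a median of 21.6 to 25.1 in nonOIR and from 22.2 through 27.4 to 34.8 in OIR. All 8 OIR libraries were above the nonOIR median and 6 were above the highest nonOIR library. The log2 fold change of 0.31 ± 0.11 (SE) missed the threshold (edgeR adjusted p = 0.0766). It passed with lane as a covariate (0.31 ± 0.10 (SE), edgeR adjusted p = 0.0405) and with DESeq2 (adjusted p = 0.0214), and not within either lane.

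Of 8 other VEGF ligands and receptors found in the table, 3 were tested and 0 passed in edgeR, DESeq2 or limma-voom. At an unadjusted edgeR p under 0.05 there were 0, against 3130 of all 12496 tested genes. The co-receptor gene Nrp1 stood at 215 ± 29.9 CPM in OIR and 230.3 ± 42.3 in nonOIR, Nrp2 at 47.5 ± 13.6 and 36.4 ± 14.5, and the receptor gene Kdr at 4.41 ± 3.21 and 5.44 ± 2.10 (SD, n = 8). Flt1, the receptor for VEGF-B, had 98 counts in all in OIR and 68 in nonOIR. The ligand gene Pgf had 58 and 2 counts, in 4 of 8 OIR libraries and 1 of 8 nonOIR libraries, and was not called by DESeq2 (adjusted p = 0.117). Vegfc and Vegfd had at most 2 counts in all.

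The PDGF genes did not pass. Pdgfb (ENSMUSG00000000489, chromosome 15 from 79995874 to 80014977, minus strand) ran from 60.8 CPM through 80.3 to 113 in nonOIR and from 57.3 through 77.2 to 88.3 in OIR. The groups overlapped, and the change was -0.15 ± 0.13 on the log2 scale (SE, edgeR adjusted p = 0.505). In OIR the level split by lane: all 3 lane 2 libraries (57.3 to 65.9 CPM) lay below all 5 of lane 1 (74.5 to 88.3), as did 11.1% of tested genes. In nonOIR the mean was 66.9 CPM in lane 2 and 90.9 in lane 1, and the lane ranges overlapped (60.8 to 79.0 and 75.9 to 113).

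Pdgfa (ENSMUSG00000025856, chromosome 5 from 138976014 to 138997370, minus strand), which attracts retinal astrocytes through Pdgfra, ran from 15.2 CPM through 17.2 to 25.1 in nonOIR. In OIR it ran from 16.8 through 19.1 to 29.7, a change of 0.19 ± 0.14 on the log2 scale (SE, edgeR adjusted p = 0.449). The highest library of each group stood well above the rest, OIR replicate 1 at 29.7 CPM and nonOIR replicate 4 at 25.1. Without OIR replicate 1 and nonOIR replicate 8 the log2 fold change of Pdgfa was 0.06. Of its exonic bases 26.1% are shared with the antisense gene 6330403L08Rik, which had 589 counts against 7311 for Pdgfa. Strand is not kept by this kit, and reads of such pairs cannot be told apart by direction.

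Among 7 other PDGF pathway genes 3 were tested and 0 passed in edgeR, DESeq2 or limma-voom. At an unadjusted edgeR p under 0.05 there were 0, against 3130 of all 12496 tested genes. Furin, a protease that cleaves growth factor precursors, was the highest, at 75.0 ± 18.6 CPM in OIR and 73.6 ± 22.3 in nonOIR (SD, n = 8). The receptor genes were nearly absent, Pdgfra with 108 and Pdgfrb with 44 counts over all 16 libraries.

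Among the EGF receptor ligands, Tgfa was well expressed and did not pass, and Hbegf was close to the detection limit. Tgfa (ENSMUSG00000029999, chromosome 6 from 86195223 to 86275719, plus strand) ran from 59.0 CPM through 102 to 112 in nonOIR and from 67.7 through 94.7 to 120.2 in OIR. On the log2 scale the change was -0.04 ± 0.14 (SE, edgeR adjusted p = 0.911) and turned to 0.03 with library size scaling.

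Hbegf (ENSMUSG00000024486, chromosome 18 from 36504927 to 36515805, minus strand) had 61 counts in OIR and 209 in nonOIR, summed over 8 libraries each. Its CPM was 0.382 at the lowest, 1.10 at the median and 2.10 at the highest in nonOIR, and 0, 0.195 and 1.00 in OIR. In 6 of 8 OIR libraries it was below the lowest nonOIR library, while OIR replicates 2 and 5 were inside the nonOIR range. The log2 fold change of -2.01 ± 0.66 (SE) missed the threshold (edgeR adjusted p = 0.0568). It passed without OIR replicate 5 (log2 fold change -2.64, edgeR adjusted p = 0.0169), with lane as a covariate (-2.11, edgeR adjusted p = 0.0315), and with DESeq2 (-2.02, adjusted p = 0.0134) and limma-voom (-2.56, adjusted p = 0.0283).

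Of 21 further genes for EGF receptor ligands, receptors and their shedding, 8 were tested, 2 rose and 1 fell. Rhbdf2 (iRhom2, which carries the sheddase ADAM17 to the cell surface) rose 1.82-fold, from 21.3 ± 7.09 to 38.9 ± 8.16 CPM (SD, n = 8, edgeR adjusted p = 0.00686), and 6 of 8 OIR libraries were above the highest nonOIR library. The Rhbdf2 call was lost in lane 1 alone (log2 fold change 0.69, edgeR adjusted p = 0.139, against 1.30 in lane 2). The difference between lanes did not pass for Rhbdf2 (edgeR interaction test, adjusted p = 0.506). Adam9, another membrane protease, rose from 103.8 ± 21.9 to 153 ± 33.7 CPM (SD, n = 8, edgeR adjusted p = 0.0215). That call was lost without OIR replicate 7 (edgeR adjusted p = 0.0511) and in lane 1 alone (log2 fold change 0.24, edgeR adjusted p = 0.434, against 1.20 in lane 2). For Adam9 too the difference between lanes did not pass (edgeR interaction test, adjusted p = 0.0608). Errfi1, an inhibitor of the EGF receptor, fell from 44.5 ± 6.65 to 32.6 ± 5.53 CPM (SD, n = 8, edgeR adjusted p = 0.0212), a call lost without OIR replicate 6 (edgeR adjusted p = 0.0539) and within either lane.

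The sheddase genes themselves did not pass: Adam17 stood at 405 ± 75.9 CPM in OIR and 415 ± 103 in nonOIR, and Adam10 at 796 ± 101 and 828 ± 48.5 (SD, n = 8). Cd9, a tetraspanin that binds the HB-EGF precursor, was abundant at 2399 ± 265 and 2491 ± 300 CPM (SD, n = 8). The receptor gene Egfr had 16 counts over all 16 libraries, and Areg, Ereg and Epgn had 0. Erbb3, too low for edgeR's filter, had 105 counts in all in OIR, 63 of them in replicate 6, and 3 in nonOIR. DESeq2 called it (adjusted p = 0.0143), and edgeR with no low-count filter did not (adjusted p = 0.0567).

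Ang (ENSMUSG00000072115, chromosome 14 from 51091150 to 51102009, plus strand) fell to 0.702 of its nonOIR level. It ran from 135 CPM through 154 to 208 in nonOIR and from 96.5 through 103 to 169.5 in OIR. OIR replicate 1 held the highest OIR value and lay inside the nonOIR range, and the other 7 OIR libraries lay below the lowest nonOIR library. The log2 fold change was -0.51 ± 0.12 (SE, edgeR adjusted p = 0.0131), and the call held when any single library was left out (adjusted p 0.00113 to 0.0325). In lane 2 the fall was -0.84 ± 0.14 on the log2 scale (SE, edgeR adjusted p = 0.00431), and in lane 1 it was -0.29 ± 0.13 and did not pass (SE, edgeR adjusted p = 0.314). The difference between lanes did not pass either (edgeR interaction test, unadjusted p = 0.0133, adjusted p = 0.218).

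Rnase4, of which 1 RefSeq start uses the promoter printed above and encodes another secreted ribonuclease, had 588904 counts over all libraries against 52703 for Ang and fell with it. It stood at 1861 ± 291 CPM in nonOIR and 1278 ± 213 in OIR (SD, n = 8), with a change of -0.54 ± 0.11 on the log2 scale (SE, edgeR adjusted p = 0.00376). Like Ang, it passed in lane 2 (-0.82, edgeR adjusted p = 0.000797) and not in lane 1 (-0.34, edgeR adjusted p = 0.168). Its difference between lanes did not pass (edgeR interaction test, adjusted p = 0.201). Exons of Ang and Rnase4 share 219 bases, 18.2% of the exonic bases of Ang, on the same strand. Reads from these bases can be split or dropped in counting, so the counts of the pair are not independent. The ratio of their counts did not differ beyond the spread: per 100 Rnase4 counts, OIR libraries held 9.03 ± 0.678 Ang counts and nonOIR libraries 8.89 ± 0.576 (SD, n = 8, two-sided exact permutation p = 0.662, a measure chosen after the values of both genes were seen). Within lanes the exact permutation p of this ratio was 0.563 in lane 1 (5 against 5) and 0.9 in lane 2 (3 against 3, where 0.1 is the smallest possible).

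**Figure D3:**
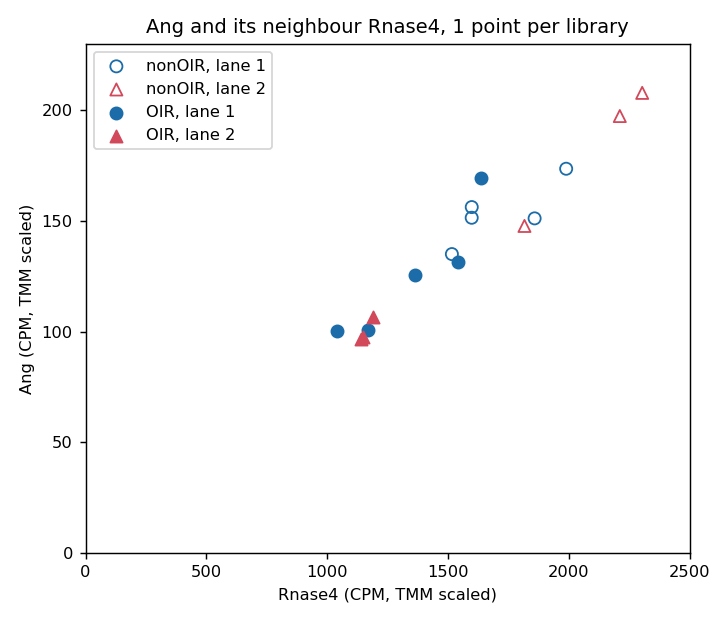
Ang against Rnase4 in CPM after TMM scaling (both axes from 0), 1 point per library, filled for OIR and open for nonOIR, circles for lane 1 and triangles for lane 2. The points of both groups lie along a common band. The OIR lane 2 libraries and OIR replicates 3 and 5 of lane 1 are near its lower end. OIR replicate 1, at 169.5 CPM of Ang, is among the nonOIR libraries.

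Rnase4 was also the gene nearest to Ang by the likeness measure (r = 0.92, and 0.90 with lane means removed), followed by Sdf2, Ccr2, Cybc1 and Gm5086 (r = 0.89 to 0.91). Cybc1, a chaperone of the NADPH oxidase, stood at 320 ± 42.1 CPM in nonOIR and 220 ± 41.1 in OIR (SD, n = 8). Ccr2, a monocyte chemokine receptor, was at 5.44 ± 1.32 and 5.22 ± 3.78 CPM (SD, n = 8). Of 11 listed relatives and partners of angiogenin 6 were tested, and Rnase4 alone passed in edgeR. The intracellular inhibitor gene Rnh1 stood at 223 ± 29.1 CPM in OIR and 187 ± 15.6 in nonOIR (edgeR adjusted p = 0.0601, DESeq2 adjusted p = 0.0311). Plxnb2, a receptor for angiogenin, stood at 677 ± 260 and 605 ± 256 CPM (SD, n = 8). Ang4, Ang5 and Ang6 had 0 counts and Ang2 had 1.

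Thbs1 (ENSMUSG00000040152, chromosome 2 from 118111876 to 118127133, plus strand) did not pass. It ran from 6.72 CPM through 13.3 to 26.0 in nonOIR and from 5.17 through 10.8 to 19.4 in OIR, and the groups overlapped widely. The log2 fold change was -0.46 ± 0.28 (SE, edgeR adjusted p = 0.342), at -0.58 in lane 1 and -0.07 in lane 2. Thbs1 is also carried by platelets. In the same libraries 6 platelet markers summed to 11.6 to 207 CPM in OIR and 19.5 to 106 in nonOIR. Nearly all of that was Pf4 and Gp9, with Gp1bb at 0 throughout, and Pf4 is also a marker of border macrophages. The part of platelet RNA in Thbs1 was not tested.

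Of 14 other thrombospondins and receptors 10 were tested, and 1 rose. Cd36, a scavenger receptor through which thrombospondin-1 blocks vessel growth, rose 6.50-fold. It stood at 3.30 to 15.1 CPM in nonOIR and 7.84 to 88.6 in OIR, with 6 of 8 OIR libraries above the highest nonOIR library. Its log2 fold change was 2.70 and passed (edgeR adjusted p = 0.00232). Like Igf1, Cd36 was higher in every OIR library of lane 2 (79.4 to 88.6 CPM) than in any of lane 1 (7.84 to 31.0), a split that 11.6% of tested genes showed, and it rose within either lane (on the log2 scale by 1.66, edgeR adjusted p = 0.0444, and by 3.47, edgeR adjusted p = 0.00147). The other thrombospondin-1 receptor gene, Cd47, stood at 205 ± 17.9 CPM in OIR and 232 ± 17.0 in nonOIR (SD, n = 8, edgeR adjusted p = 0.119).

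Grn (ENSMUSG00000034708, chromosome 11 from 102430315 to 102437048, plus strand) rose 1.29-fold. It ran from 2832 CPM through 3292 to 4575 in nonOIR and from 3859 through 4527 to 5280 in OIR. All 8 OIR libraries were above the nonOIR median and 4 were above the highest nonOIR library. The log2 fold change was 0.37 ± 0.11 (SE, edgeR adjusted p = 0.0356). Leaving out 1 library ended the call for 4 OIR libraries (replicates 3, 4, 5 and 7) and 5 nonOIR libraries (replicates 1, 5, 6, 7 and 8), at log2 fold changes of 0.33 to 0.38 (edgeR adjusted p 0.0531 to 0.0707). It was also lost without OIR replicate 1 and nonOIR replicate 8 together (0.32, edgeR adjusted p = 0.0796). Lane 1 had the higher mean in both groups, although the OIR lane ranges overlapped, and within lanes the log2 fold change was 0.30 ± 0.10 in lane 1 (SE, edgeR adjusted p = 0.13) and 0.58 ± 0.07 in lane 2 (SE, edgeR adjusted p = 0.00128). With lane as a covariate it was 0.38 ± 0.08 (SE, edgeR adjusted p = 0.00172).

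Among 12 genes that carry or process progranulin 9 were tested and Ctsb alone passed in edgeR. Ctsd (cathepsin D, another lysosomal protease) missed the threshold there (log2 fold change 0.26, edgeR adjusted p = 0.0538) and passed with DESeq2 (adjusted p = 0.0195) and limma-voom (adjusted p = 0.0385). Ctsb (cathepsin B, a lysosomal protease) rose from 7446 ± 1077 to 10799 ± 1110 CPM (SD, n = 8, edgeR adjusted p = 0.0011), and OIR was the higher group in either lane (on the log2 scale by 0.36, edgeR adjusted p = 0.0223, and by 0.91, edgeR adjusted p = 0.000447). Sort1 (sortilin, the receptor that takes up progranulin) stood at 212 ± 55.6 CPM in OIR and 209 ± 47.9 in nonOIR, and Psap (prosaposin, which carries progranulin to the lysosome) at 4496 ± 1738 and 3817 ± 1444 (SD, n = 8). Slpi, a protective binding partner of progranulin, and the neutrophil elastase gene Elane had 0 counts. The genes nearest to Grn by the likeness measure were Atp13a2, Sphk2, Man1c1, Nckap1l and Atp13a1 (r = 0.90 to 0.93, and 0.75 to 0.86 with lane means removed). Atp13a2, a lysosomal polyamine transporter, stood at 177 ± 34.0 CPM in OIR and 133 ± 47.7 in nonOIR (SD, n = 8), and none of these 5 passed.

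**Figure D4:**
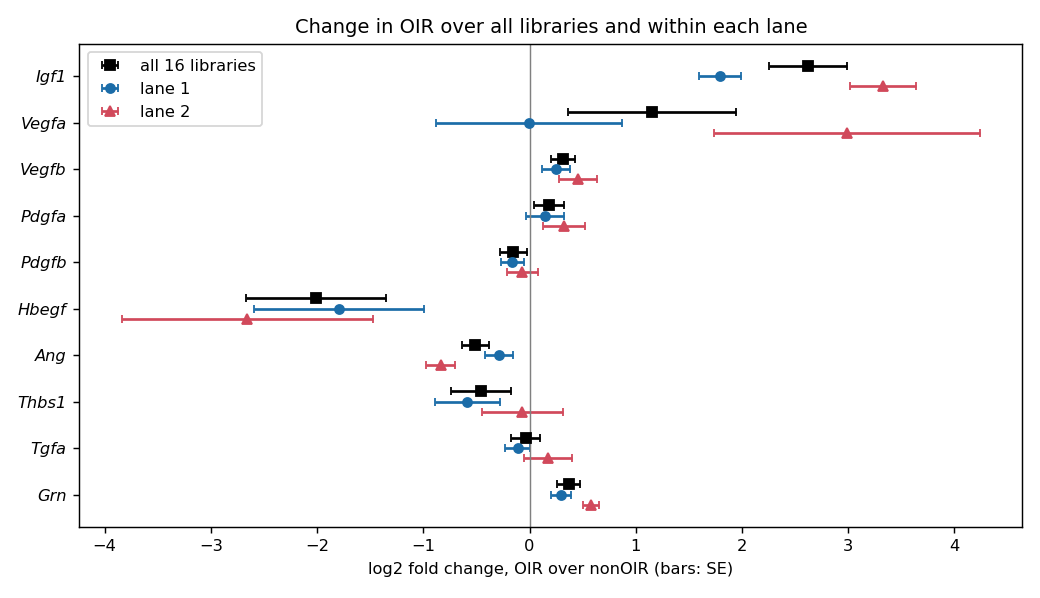
Log2 fold change of each member, OIR over nonOIR, with its standard error, over all 16 libraries (squares), in lane 1 (circles, 5 against 5) and in lane 2 (triangles, 3 against 3). Igf1, Ang and Grn lie on the same side of 0 in either lane, and each is farther from 0 in lane 2.

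Over the 10 members, 0 differed between lanes in their response to OIR by edgeR's interaction test (adjusted p), against 0.496% of all tested genes. At an unadjusted p under 0.05 in the interaction test, 2 did (Igf1 and Ang). The share of all genes at that unadjusted level was not computed. No other tool was run for that test. The authors' deposited table called 5 of the members, Igf1, Vegfb, Hbegf, Ang and Grn, with log2 fold changes of 1.96, 0.32, -0.97, -0.48 and 0.36. Those values rest on the scaling of the authors, and no source used here says whether they were shrunk.

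In a further list of 29 secreted factors that act on vessels, 14 genes were tested, 1 rose and 1 fell. Csf1, the growth factor of macrophages, rose from 18.7 ± 8.94 to 41.9 ± 12.4 CPM (SD, n = 8, edgeR adjusted p = 0.0126) and passed in either lane (on the log2 scale by 0.97, edgeR adjusted p = 0.0162, and by 1.86, edgeR adjusted p = 0.00335). Serpinf1 (pigment epithelium-derived factor, an inhibitor of angiogenesis) fell from 108 ± 12.1 to 73.8 ± 18.8 CPM (SD, n = 8, edgeR adjusted p = 0.0149). Its fall was -1.01 on the log2 scale in lane 2 (edgeR adjusted p = 0.00146) and -0.30 in lane 1, where it did not pass (edgeR adjusted p = 0.149). Between lanes the difference for Serpinf1 did not pass (edgeR interaction test, adjusted p = 0.0528). Across all lists 58 different genes were tested, and 5 rose (8.62%) and 3 fell (5.17%), near the 6.39% and 4.56% of all tested genes.

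**Figure D5:**
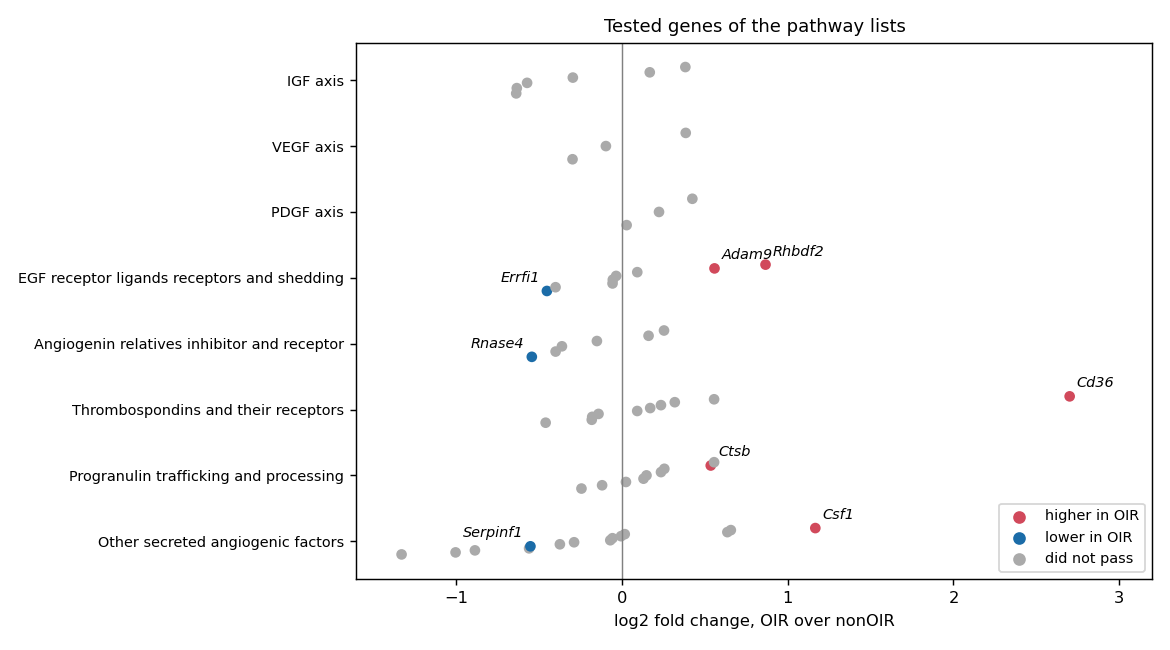
Log2 fold change, OIR over nonOIR, of every tested gene of the 8 pathway lists, with genes that passed named and coloured. Cd36 lies farthest to the right at 2.70, and no tested gene of the IGF, VEGF or PDGF lists passed.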

How the data were processed

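RNA was measured in 16 libraries made with the SMARTer v4 and Nextera XT kits from 750 pg of total RNA and read for 50 cycles, per the labels' protocols. The submitters' processing notes list build mm10 with featureCounts 1.6.2, STAR 2.6.0b-1, DESeq2 2.11.40.2 and FastQC 0.72, without roles; no source used here gives the annotation. Raw counts of reads per gene were deposited. The deposited normalized signal is the count divided by 1 factor per library, by the authors. A Wald score, p-values and log2 fold changes and standard errors also stand in the authors' deposited table and were used only where named.

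After filterByExpr and TMM scaling, the counts were fitted in R 4.3.3 with edgeR 4.0.16 (glmQLFit, robust, and glmQLFTest, two-sided, all 16 libraries, no covariate), with Benjamini-Hochberg adjustment over 12496 genes. CPM is the count per 1000000 of the scaled library size. The standard error is the log2 fold change divided by the root of the F statistic. Alternatives covered scaling, filters, lane, replicate number, DESeq2 1.42.0, limma-voom (limma 3.58.1) and omission of libraries. Totals of 13591651 to 30001463 counts limit genes under about 1 CPM most, and amplified reads without molecular identifiers are not independent molecules.

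The members and lists were chosen with earlier results of these data known. Named genes are the members, genes of each list past the threshold, receptors of a member, and the 5 genes nearest to each changed member among those with a mean of at least 5 CPM. Irs2, Igfbp4, Igf2, Igfbp1, Igf2r, Pgf, Vegfc, Vegfd, Furin, Adam10, Adam17, Cd9, Areg, Ereg, Epgn, Erbb3, Rnh1, Ctsd, Ms4a4c, F13a1, Snap25, Nefl, Calb2, Ang2, Ang4, Ang5, Ang6, Psap, Slpi, Elane, Pecam1, Acta2, Vim, Glul, Mrc1, Lyve1, Siglec1, Pf4, Gp9, Gp1bb, Ly6c2 and Adm were chosen from the lists after their values were seen. A further microglial marker of the list is not reported here and stays out of the marker sums. Genes were matched by symbol, sequences came from RefSeq (GRCm38.p6), and coordinates from GENCODE M21 on mm10.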

Additional observations from a re-analysis of the deposited data

Results flagged for a closer look

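In 4 of the 20 sets of 8 values (10 genes in 2 groups) the highest or lowest library lay farther from the rest than Dixon's 95% limit allows; chance marks about 1 set in 20. Pdgfa was at 29.75 CPM in OIR replicate 1, with the next library at 21.8, and at 25.11 CPM in nonOIR replicate 4, with the next at 18.9. Hbegf was at 1.002 CPM in OIR replicate 5 (29 counts), and the next OIR library held 0.469. Tgfa was at 59.0 CPM in nonOIR replicate 8, below the next lowest at 91.5. None of the values of Igf1, Ang and Grn, the members that passed the test, was marked in this way. The limit looks for a single extreme library, so it cannot mark a group split in parts, as Igf1 was by lane in OIR.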

How the results depend on the processing

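Over 28 alternatives for each, Igf1 passed in all and kept its direction, Ang passed in all but lane 1 alone, and Grn passed in all but lane 1 alone and the omissions named above. The 1368 genes called became 2159 with lane as a covariate and 417 in lane 1 alone, and ran from 935 to 1556 when single libraries were left out. Of the 10 members 3 were called, against 5 with lane as a covariate or with DESeq2, 1 in lane 1 alone, and 2 to 3 without single libraries. Of the pathway genes 8 were called, against 3 in lane 1 alone, 15 in lane 2 alone, 13 with DESeq2 (78 tested) and 7 to 11 without single libraries. The direction turned for Tgfa with library size scaling (0.034), in lane 2 (0.173) and without OIR replicate 1 or 6 (-0.114 to 0.0375 over single omissions), and for Vegfa in lane 1 (-0.0038); neither gene passed anywhere. Hbegf has no value with a mean of at least 1 CPM required. Errfi1 lost its call with no low-count filter. Numbers shared by replicates are not said to mark a litter or day, and same-numbered libraries did not all deviate together (r 0.0118 to 0.295, and 2 of 8 OIR libraries were nearest to their own number), so they were not treated as pairs. With the replicate block, which also absorbs lane, 1679 genes and 4 members were called, Hbegf among them (log2 fold change -2.52, edgeR adjusted p = 0.0232). The cause of these differences was not tested. Lane 2 holds 3 libraries a group, and genes near or under 1 CPM such as Vegfa and Hbegf rest on few counts.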

Other observations

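Adm encodes adrenomedullin, a vessel-active peptide induced by hypoxia. It was too low for the filter of the edgeR test, with 152 counts over the 8 OIR libraries and 3 over the nonOIR libraries. All 8 OIR libraries held at least 1 count, and 1 nonOIR library did (nonOIR replicate 2, with 3 counts). The highest OIR values were 1.89, 1.02 and 1.81 CPM in replicates 6, 7 and 8, the lane 2 libraries, against 0.0397 to 0.511 CPM in lane 1. DESeq2 called it (log2 fold change 5.43 ± 1.13 (SE), adjusted p = 6.69e-05), and so did edgeR with no low-count filter (adjusted p = 0.00962).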
